A study of Rattus norvegicus with 48 samples.

Results

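Aldo-keto reductases (AKR) and aldehyde dehydrogenases (ALDH) were examined in cerebral endothelial cells (CECs) of fed and fasted rats, as a set of 10 listed genes. The set was built around Akr1b1, whose level was known to be highest after 2 days of fasting, and the other listed genes were followed to see whether they shared that profile. Symbols were linked to Ensembl identifiers through the gene table supplied with the study, which gave an identifier for 8 of the 10 genes (Akr1a1, Akr1b1, Akr7a2, Aldh1a1, Aldh2, Aldh3a2, Aldh7a1 and Aldh9a1). Aldh4a1 and Aldh18a1 were not analysed here. The 8 genes all had at least 1 read in each sample and were therefore among the 13050 genes tested, out of 32624 features listed. Akr1b1 was selected on its measured group means in these samples, so its values are given as a description without a test and tests concern the 7 other genes, called its relatives in what follows.

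The cells came from the cerebral cortex of male Wistar-Han rats that were fed ad libitum (AL, 0 days of fasting) or deprived of food for 1 day (F1), 2 days (F2) or 3 days (F3). Cortical tissue from several animals was pooled for each isolation, cells carrying the myeloid protein CD11b were depleted, and cells carrying the endothelial protein CD31 were retained by magnetic sorting. Each group held 3 samples from independent experiments, named i, j and k, and each sample was sequenced as 4 technical replicates whose counts were summed. No genetic manipulation was involved, and a sample describes a pool of animals rather than a single rat. Technical replicate d of F1 sample k carried conflicting labels (its title placed it in F1, its treatment field gave a 2-day fast) and was kept in F1. The 12 samples held between 20718644 and 25960874 reads assigned to genes. In bulk RNA of this kind, fewer cells of a type and less RNA per cell cannot be told apart.

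F2 sample j stood apart from the other samples. It held the highest level of the 12 samples for 20.1% of the genes tested, whereas the 11 other samples did so for 5.02 to 10.3% of genes each. The main results that rest on the F2 mean are therefore also given without this sample. The 3 endothelial markers with an identifier (Pecam1, Slc2a1 and Abcb1a) were present in every sample, with a summed level between 364995 and 525675 normalized counts. Markers of other cells were also detected: the 2 pericyte markers summed to between 1473 and 4509, the astrocyte marker Aldoc was between 1530 and 2277, the 6 microglial markers summed to between 56.7 and 134, and the red blood cell marker Alas2 was between 36.1 and 110. Only part of the listed markers had an identifier: 2 of 5 for pericytes, 1 of 5 for astrocytes, 6 of 7 for microglia and 1 of 3 for red blood cells. These sums are not per transcript length and are not a measure of purity. The paper reports high purity by CD31 staining, with glial, neuronal and mural transcripts undetectable or very low. Markers of neurons, oligodendrocytes and fibroblasts were not analysed here.

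Enzymes of both families handle reactive carbonyl compounds. Aldo-keto reductases reduce aldehydes and ketones to alcohols with NADPH, and aldehyde dehydrogenases oxidize aldehydes to carboxylic acids with NAD+ or NADP+, so the same aldehyde can often leave by either route. Among the reductases, Akr1b1 (aldose reductase) converts glucose to sorbitol at the entry of the polyol pathway and is known from vascular complications of diabetes. Among the dehydrogenases, some members clear products of lipid peroxidation or ethanol, while others serve a single step of amino acid, retinoid, lipid or carnitine metabolism.

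Akr1b1 had its highest level at day 2, which is the pattern it was chosen for. In AL rats, Akr1b1 was at 287, 245 and 217 normalized counts in samples i, j and k. In F1 rats, the Akr1b1 values were 180, 224 and 167 normalized counts. In F2 rats, they were 281, 350 and 514 normalized counts. The F3 values of Akr1b1 returned to 226, 190 and 204 normalized counts. All 3 F2 samples were thus above all F1 and F3 samples, but F2 sample i was below AL sample i, so that F2 and AL overlapped.

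The group means of Akr1b1 fell in the order F2 (381.5 ± 120 normalized counts, SD, n = 3), AL (249.5 ± 35.5), F3 (206 ± 17.9) and F1 (190 ± 29.7). AL, F3 and F1 overlapped with one another in this order. The F2 mean was 1.53 times the AL mean, 2.00 times the F1 mean and 1.85 times the F3 mean. Against the mean of the 3 other groups the ratio was 1.77. Over 16 alternatives of scaling or sample choice, it ran from 1.46 (without F2 sample k) to 2.01 (without F2 sample i). These ratios use the values that Akr1b1 was selected on, so they describe its level and give no support for it. The excess at day 2 was spread unevenly over the F2 samples, since sample k alone was at 514.

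The technical replicates give the spread of repeated counts within a sample, and not the spread between pools of animals. In F2 sample k, the 4 technical replicates of Akr1b1 held 108 to 157 reads each, or 18.1 to 26.6 CPM (reads scaled to the library total). In F2 sample j they ranged from 13.7 to 17.8 CPM, and in F2 sample i from 9.92 to 12.5 CPM. The highest sample outside F2, AL sample i, ranged from 9.75 to 14.0 CPM. The technical replicates of F2 sample k were therefore all above those of AL sample i, whereas those of F2 sample i lay within the range of AL sample i. In F1 sample k, the technical replicate with conflicting labels gave 6.79 CPM of Akr1b1, within the 5.86 to 8.64 CPM of that sample's technical replicates.

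Pericyte markers also varied over the F2 samples. Abcc9, a potassium channel subunit of pericytes, was at 3408, 1809 and 3980 normalized counts in F2 samples i, j and k, and its highest value of the 12 samples fell in the sample with the most Akr1b1. The summed level of Abcc9 and Anpep was 2186 to 4509 in F2, against 1762 to 4161 in AL, 1846 to 2098 in F1 and 1473 to 4143 in F3. Acta2, a smooth muscle marker, was between 236 and 366 normalized counts in F2 and between 126 and 300 in the other groups. By group mean, the pericyte sum was highest in F2 (3560), then AL (2825), F3 (2797) and F1 (1994), the same order as the Akr1b1 means. The Acta2 means had another order: 289 in F2, 223 in F3, 204 in F1 and 162 in AL. Single samples could differ from the group order. F2 sample j had more Akr1b1 than AL sample i (350 against 287) with less Abcc9 (1809 against 3560). The part of these cells in the Akr1b1 values was not tested.

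**Figure D1:**
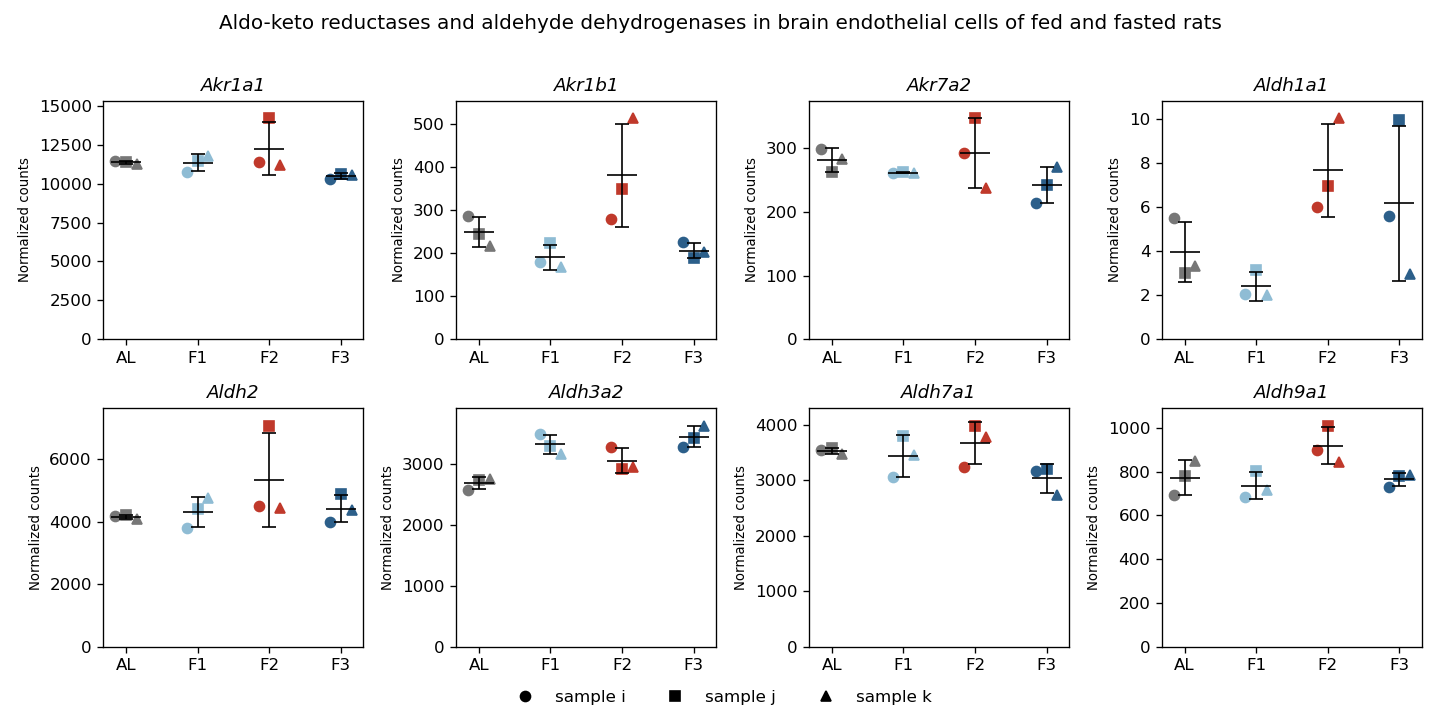
Normalized counts (vertical axes, linear from 0) of the 8 genes in each sample of the fed group (AL) and of the groups fasted 1 (F1), 2 (F2) or 3 (F3) days; symbols mark samples i, j and k, and bars give the mean ± SD of 3 samples. The 3 F2 samples of Akr1b1 lie between 281 and 514, while in Akr1a1, Akr7a2, Aldh2, Aldh7a1 and Aldh9a1 the highest point is F2 sample j.

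The relatives were compared with this profile first by their group means. Of the 7 relatives, 6 had their highest mean in F2, whereas 25.4% of all genes tested did (24.5% of genes with a mean of at least 100 normalized counts). The exception was Aldh3a2, highest in F3 like 26.9% of all genes. Leaving out F2 sample j reduced the 6 to 3 (Aldh1a1, Aldh2 and Aldh9a1), against 22.9% of all genes. F2 sample j was the highest of the 12 samples in 5 of the 7 relatives, a position it held in 20.1% of all genes and in 23.9% of genes with a mean of at least 100 normalized counts. In 0 of the 7 relatives were all 3 F2 samples above the 9 other samples, compared with 0.920% of all genes. F2 and AL did not overlap in 3 of the 7 relatives, Aldh1a1, Aldh2 and Aldh3a2 (15.5% of all genes). Of these, Aldh1a1 held 6 reads in both F2 sample i and AL sample i and was separated by scaling alone. F2 and F1 did not overlap in 2 of 7, Aldh1a1 and Aldh9a1 (21.8% of all genes).

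Statistical tests of the F2 level did not separate the relatives from the other groups. With edgeR's quasi-likelihood test, p values adjusted by Benjamini and Hochberg's method over all genes and a threshold of 0.05, F2 against the mean of AL, F1 and F3 called 0 of 7 relatives (0.667% of all genes). The count at an unadjusted p under 0.05 was 3 of 7 (16.8% of all genes), and the lowest adjusted p was 0.103. F2 against AL also called 0 of 7 (0.920% of all genes), with 3 of 7 at an unadjusted p under 0.05 (13% of all genes) and a lowest adjusted p of 0.283. F2 against F1 called 0 of 7 (1.34% of all genes), with 2 of 7 at an unadjusted p under 0.05 (17.4% of all genes) and a lowest adjusted p of 0.109. Without F2 sample j these 3 comparisons again called 0 of 7, with 2, 1 and 2 of 7 at an unadjusted p under 0.05. The shares of all genes in that smaller fit are not given here, so these counts have no background. The median log2 fold change of the relatives in F2 against the other groups was 0.16, beside a median of -0.00062 over all genes, with values above 0 in 6 of 7, and it was 0.06 without F2 sample j. DESeq2 called 1 relative, Aldh9a1, in F2 against the other groups and in F2 against F1. The shares of all genes given above are from edgeR, and those called by DESeq2 are not given here, so this count has no background.

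Among the reductases, Akr1a1 encodes the general aldehyde reductase, which in rodents also serves the synthesis of ascorbate. Its values were 11484, 11377 and 11238 normalized counts in AL, and 10738, 11492 and 11796 in F1. In F2, Akr1a1 was at 11368, 14209 and 11193 normalized counts, and in F3 at 10301, 10652 and 10534. F2 samples i and k lay among the AL and F1 samples, and sample j was alone above them. The F3 samples of Akr1a1 were below all samples of the other groups, but it was not called in F3 against AL or F2. Over all genes, F3 samples did not overlap with AL in 35.6% and with F2 in 26.8%. In F2 against the other groups, the log2 fold change of Akr1a1 was 0.15 ± 0.072 (SE), with a 95% interval of -0.0066 to 0.30 and an adjusted p of 0.313 in edgeR's test. Without F2 sample j this value was 0.028.

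Akr7a2 encodes a reductase that acts on succinic semialdehyde and on the dialdehyde of aflatoxin. Its values were 299, 262 and 282 normalized counts in AL, 261, 263 and 261 in F1, 293, 347 and 238 in F2, and 214, 242 and 270 in F3. The lowest and the highest F2 samples of Akr7a2 bracketed the AL and F1 values, so the F2 group overlapped with every other group. The log2 fold change in F2 against the other groups was 0.16, with a 95% interval of -0.073 to 0.40, and 0.023 without F2 sample j.

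Among the dehydrogenases, Aldh2 is the mitochondrial enzyme that oxidizes acetaldehyde and the lipid peroxidation product 4-hydroxynonenal. Aldh2 was at 4180, 4199 and 4074 normalized counts in AL, and at 3784, 4389 and 4739 in F1. In F2 the Aldh2 values were 4499, 7069 and 4444, and in F3 they were 3984, 4866 and 4384. F2 sample j was thus far above the 11 others. Its 4 technical replicates (295 to 310 CPM) were all above those of the next sample, F3 sample j (197 to 207 CPM). Technical replicates do not measure the spread between pools of animals, so they do not replicate this difference. In F2 against the other groups, Aldh2 had a log2 fold change of 0.32 (95% interval 0.048 to 0.58, adjusted p = 0.216, edgeR), and 0.060 without F2 sample j.

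Aldh9a1 encodes the dehydrogenase of 4-trimethylaminobutyraldehyde, a step of carnitine synthesis. Its values were 692, 779 and 848 normalized counts in AL, 685, 805 and 718 in F1, 899, 1011 and 845 in F2, and 729, 782 and 783 in F3. The Aldh9a1 values of F2 were all above those of F1 and F3, as in Akr1b1, and again the F2 and AL groups overlapped, here through AL sample k (848) and F2 sample k (845). The log2 fold change in F2 against the other groups was 0.28 ± 0.078 (SE), with a 95% interval of 0.11 to 0.45 and an adjusted p of 0.103 in edgeR's test. In F2 against F1 it was 0.32 ± 0.096, with an adjusted p of 0.109. DESeq2 gave nearly the same size, 0.28 and 0.32, with adjusted p values of 0.0352 and 0.0463, so the call of Aldh9a1 depended on the tool. Without F2 sample j, the log2 fold change in F2 against the other groups was 0.20 (adjusted p = 0.272, edgeR). Aldh9a1 also has 1 named pseudogene in the RefSeq gene table, and reads matching more than once had been removed by the authors.

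Aldh7a1 encodes antiquitin, which oxidizes the semialdehyde formed during lysine breakdown. Aldh7a1 was at 3550, 3582 and 3467 normalized counts in AL, 3062, 3809 and 3449 in F1, 3250, 3989 and 3775 in F2, and 3172, 3205 and 2729 in F3. The F3 samples of Aldh7a1 were below all AL and F2 samples. F3 and F2 did not overlap in 3 of the 7 relatives (Akr1a1, Aldh7a1 and Aldh9a1), compared with 26.8% of all genes. In F3 against F2 the log2 fold change of Aldh7a1 was -0.27 ± 0.097 (SE), with an adjusted p of 0.115 in edgeR's test. In that comparison 0 of 7 relatives were called (5.88% of all genes), although 4 of 7 had an unadjusted p under 0.05 (22.1% of all genes). Without F2 sample j the value of Aldh7a1 was -0.21 (adjusted p = 0.256, edgeR), and 0 of 7 relatives had an unadjusted p under 0.05. The share of all genes in that smaller fit is not given here.

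Aldh1a1, a dehydrogenase that forms retinoic acid from retinaldehyde, was near the lower limit of detection. Its counts were 6, 3 and 3 reads in AL, 2, 3 and 2 in F1, 6, 7 and 10 in F2, and 6, 10 and 3 in F3. F2 was above F1 in each sample, but F3 sample j held as many reads as F2 sample k. The log2 fold change of Aldh1a1 in F2 against the other groups was 0.95, with a wide 95% interval of 0.12 to 1.78 and an adjusted p of 0.232 in edgeR's test, and it was 1.01 without F2 sample j. At 2 to 10 reads a sample, a difference of this gene between days was not resolved at this depth.

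Aldh3a2 departed from the day 2 profile and was the only relative called against AL by edgeR or DESeq2. It encodes the fatty aldehyde dehydrogenase of the endoplasmic reticulum and peroxisomes, which oxidizes long-chain aldehydes released from ether lipids, sphingolipids and phytol. Aldh3a2 was at 2569, 2733 and 2749 normalized counts in AL, and at 3484, 3293 and 3159 in F1. In F2 its values were 3278, 2911 and 2947, and in F3 3276, 3426 and 3622. The 9 samples of fasted rats were therefore all above the 3 samples of fed rats, and the F2 samples j and k were the nearest to them. F1 and AL samples did not overlap in 28.7% of all genes, F2 and AL samples in 15.5%, and F3 and AL samples in 35.6%. The share for all fasted samples at once was not computed.

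Aldh3a2 rose at day 1 by a log2 fold change of 0.30 ± 0.071 (SE), that is 1.23-fold with a 95% interval of 1.11 to 1.37 (adjusted p = 0.0238, edgeR's quasi-likelihood test). It rose at day 3 by 0.36 ± 0.071, or 1.28-fold with an interval of 1.15 to 1.43 (adjusted p = 0.00558). At day 2 the log2 fold change was 0.18 ± 0.071, with an adjusted p of 0.295. The joint test of the 4 groups called Aldh3a2 (adjusted p = 0.0199) and none of the 6 other relatives, of which 2 had an unadjusted p under 0.05 (24.8% of all genes), and it called 9.98% of all genes. F1 against AL and F3 against AL each called 1 of 7 relatives, where 6.57% and 12% of all genes were called (3.92% and 6.28% as higher). The direct differences between fasting days were not called for Aldh3a2: F2 against F1 gave -0.12 (adjusted p = 0.415) and F3 against F2 gave 0.18 (adjusted p = 0.162), so a dip at day 2 was not shown.

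The call at day 3 held in 21 of 21 alternatives, with log2 fold changes between 0.31 and 0.39. The call at day 1 was lost when AL sample i (adjusted p = 0.0950), AL sample k (0.0567), F1 sample i (0.0908) or F1 sample j (0.0824) was left out. Beside this gene, 1 of the 3 endothelial markers, the glucose transporter Slc2a1 (GLUT1), was higher in each fasted group than in AL. Slc2a1 was between 257320 and 309123 normalized counts in AL, between 373387 and 392818 in F1, between 355198 and 389016 in F2 and between 401902 and 416026 in F3, and it was called in F1 (log2 fold change 0.43, adjusted p = 0.0151, edgeR) and F3 (0.52, adjusted p = 0.00302). The group means of the other 2 markers stayed near those of AL, with ratios to AL in F1, F2 and F3 of 1.12, 0.971 and 1.02 for Pecam1 and of 0.997, 1.03 and 1.01 for Abcb1a. Any relation between Slc2a1 and the Aldh3a2 values was not tested.

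**Figure D2:**
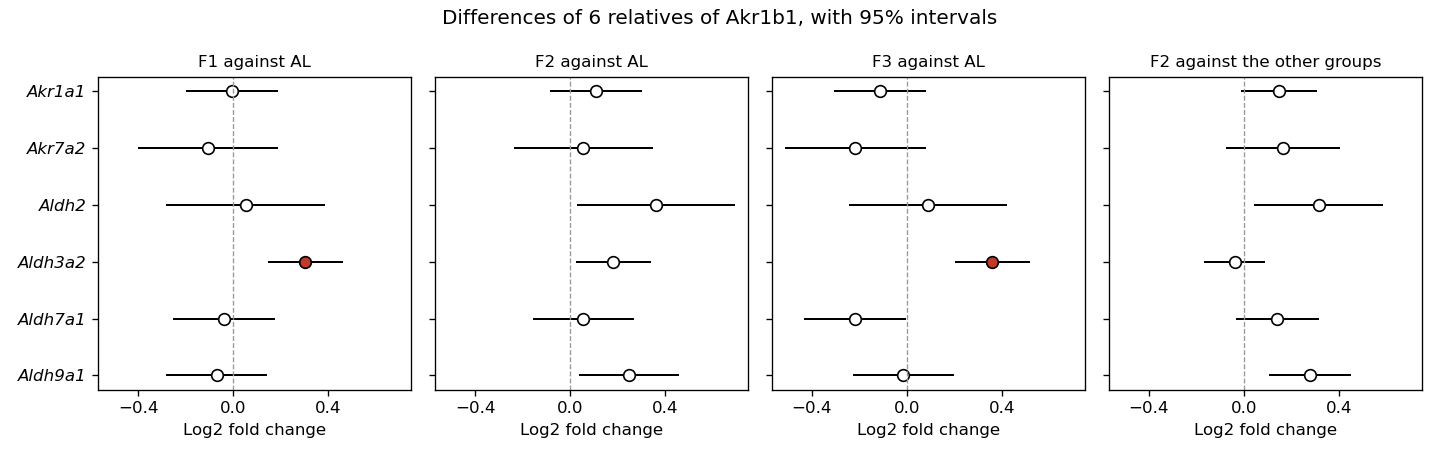
Log2 fold changes (horizontal axes) of the 6 relatives with more than 100 normalized counts on average, in F1, F2 and F3 against AL and in F2 against the mean of the other groups; lines are 95% intervals and filled points passed an adjusted p of 0.05 in edgeR's test. Only Aldh3a2 in F1 (0.30) and F3 (0.36) is filled, and in F2 against the other groups the points lie between -0.04 and 0.32.

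The profiles over the 12 samples were also set against that of Akr1b1 by Pearson's r of log2 CPM, as a description of libraries that share preparation and depth. The r of the relatives ran from -0.46 (Aldh3a2) to 0.66 (Aldh1a1), with 0.57 for Aldh7a1, 0.55 for Aldh9a1, 0.39 for Akr1a1, 0.33 for Aldh2 and 0.21 for Akr7a2. The highest of them rests on the 2 to 10 reads a sample of Aldh1a1. The spread of r over all genes is not given here, so these values have no background. Among 1263 genes with a symbol and a mean of at least 100 normalized counts, the 5 most like Akr1b1 were Antxr2, an anthrax toxin receptor (r = 0.81), Bhlhe40, a transcriptional repressor (0.77), Adpgk, an ADP-dependent glucokinase (0.77), Acsl1, a long-chain acyl-CoA synthetase (0.77), and AABR07053741.1 (0.75). In all, 9459 genes had such a mean. Those without a symbol in the shortened gene table were not ranked, so genes more like Akr1b1 may be missing. Since Akr1b1 was selected for its F2 level, a high F2 mean in genes chosen for likeness to it is part of the selection. The mean level of Acsl1 was 1239 normalized counts in AL, 1006 in F1, 1269 in F2 and 968 in F3.

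A further 9 genes of the families had an identifier and were tested, of 16 other reductases and 13 other dehydrogenases listed. Of these, 4 of 9 had their highest mean in F2 (25.4% of all genes), and the count was 4 of 9 without F2 sample j (22.9% of all genes). Akr1b10, a close paralog of Akr1b1, was at 41.4, 26.1 and 35.6 normalized counts in AL, 25.4, 28.4 and 39.6 in F1, 45.1, 59.4 and 60.1 in F2, and 77.0, 25.9 and 50.6 in F3. Its F2 samples were all above AL and F1, while the F3 samples ran from near the lowest to the highest of the 12 values. The log2 fold change of Akr1b10 in F2 against AL was 0.67 ± 0.34 (SE), with an adjusted p of 0.428 in edgeR's test, and 0.61 without F2 sample j. Akr1b1 has 5 named pseudogenes in the RefSeq gene table beside such paralogs, and the removal of reads with several matches by the authors can lower the counts of these genes in all groups.

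Akr1cl was called among these 9 genes in F1 and in F3 against AL, and it fell; 1 of 9 stands beside 2.64% of all genes called lower in F1 and 5.73% in F3. Akr1cl, a member of the Akr1c branch, was at 11038, 11154 and 12001 normalized counts in AL, and at 9404, 9778 and 9777 in F1. In F2 its values were 9557, 10022 and 9144, and in F3 9324, 9464 and 9055. The 9 fasted samples were all below the fed ones. Over all genes, samples did not overlap with AL in 28.7% for F1, 15.5% for F2 and 35.6% for F3. The share for all fasted samples at once was not computed. The log2 fold change of Akr1cl was -0.24 in F1 (adjusted p = 0.0474, edgeR) and -0.30 in F3 (adjusted p = 0.0108), and -0.25 in F2 with an adjusted p of 0.107. Without F2 sample j the F2 value was -0.29 (adjusted p = 0.0495, edgeR). The F1 call of Akr1cl was lost in 15 of 21 alternatives, and the F3 call without F3 sample k (adjusted p = 0.0529). No dehydrogenase among the 9 was called: Aldh16a1, with the lowest adjusted p of them in F2 against the other groups (0.177), had a log2 fold change of 0.24 there, and 0.11 without F2 sample j (adjusted p = 0.538, edgeR).

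**Figure D3:**
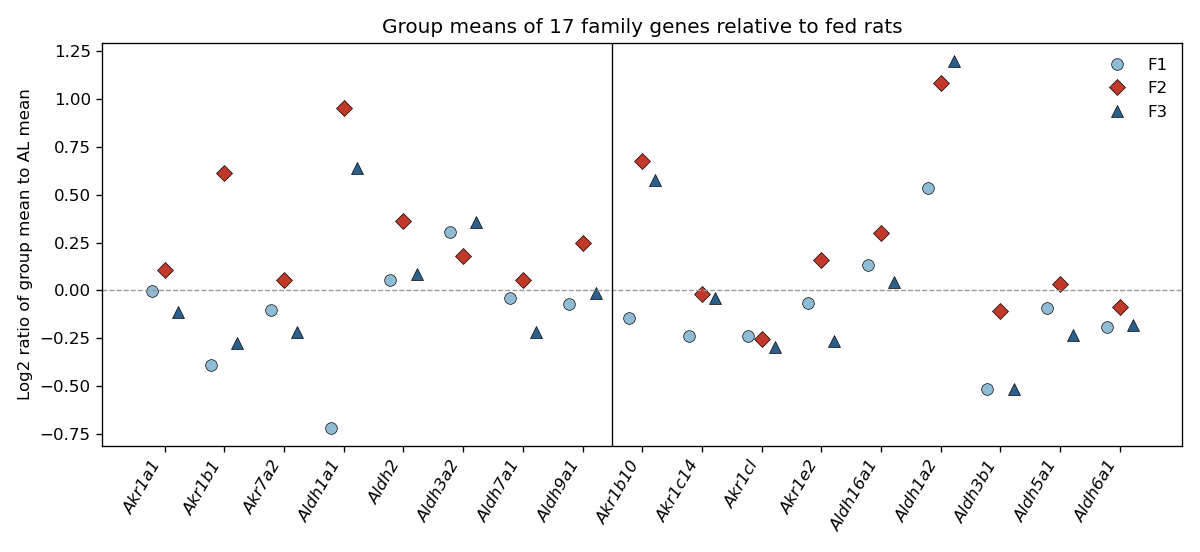
Log2 ratio of the mean normalized count in F1, F2 and F3 to that in AL (vertical axis) for the 8 genes of the set (left of the line) and 9 other genes of both families (right). F2 is the highest of the fasted groups in Akr1b1, and Aldh3a2 is the gene of the set in which F1 and F3 exceed F2.

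Genes acting around these enzymes were followed as fixed lists, of which the gene table covered a small share. Of the polyol and osmolyte genes, 1 of 6 had an identifier, the taurine carrier Slc6a6. It was called lower in F3 (log2 fold change -0.89, adjusted p = 0.00375, edgeR), as were 5.73% of all genes. The log2 fold change was -0.52 in F1 and -0.61 in F2, neither of them called. Slc6a6 was at 13348, 11985 and 16560 normalized counts in AL, and at 8942, 9772 and 10529 in F1. In F2 it was at 8764, 7441 and 11243, and in F3 at 6083, 8137 and 8456. Among genes of alcohol and carbonyl metabolism, 4 of 13 were measured (Adh4, Aox1, Cbr3 and Cbr4) and none was called in F1, F2 or F3 against AL. The same held for 2 of 12 partner enzymes of lysine, proline, carnitine and betaine metabolism (Aass and Aadat) and for 2 of 13 genes linked to the oxidative stress factor NRF2 (Blvrb and Cat). Cat, encoding catalase, had a mean of 2749 normalized counts in AL and of 3291, 3243 and 3329 in F1, F2 and F3.

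Promoter sequences are shown for 2 dehydrogenases, Aldh3a2 because it was the only relative called, and Aldh9a1 because its call depended on the tool. They are the 250 bases before the RefSeq start of each gene in assembly GRCr8, a later build than the Rnor_6.0 used for the counts, at chr10:46448336-46448585 (minus strand) for Aldh3a2 and chr13:82038429-82038678 (plus strand) for Aldh9a1. Capitals mark matches, on either strand, to the nuclear receptor core motif AGGTCA or to the search strings TGANNNNGC (antioxidant) and TGGAAA (tonicity). A tonicity element is the kind of element through which osmotic stress acts on aldose reductase.
Aldh3a2: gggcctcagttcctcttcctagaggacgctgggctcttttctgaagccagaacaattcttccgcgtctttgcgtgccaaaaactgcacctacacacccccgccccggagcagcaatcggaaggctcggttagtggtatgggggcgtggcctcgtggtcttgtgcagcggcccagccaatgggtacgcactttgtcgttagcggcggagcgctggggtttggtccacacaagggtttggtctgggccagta
Aldh9a1: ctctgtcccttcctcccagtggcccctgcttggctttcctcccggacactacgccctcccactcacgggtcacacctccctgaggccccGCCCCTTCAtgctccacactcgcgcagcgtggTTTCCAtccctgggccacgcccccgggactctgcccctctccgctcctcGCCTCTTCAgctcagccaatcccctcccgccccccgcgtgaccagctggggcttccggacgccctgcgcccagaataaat
The Aldh3a2 window held none of the 3 motifs. The Aldh9a1 window held 2 matches to the antioxidant string, printed as GCCCCTTCA and GCCTCTTCA because they lie on the other strand. They began at positions -161 and -80 from the start, and 1 match to the tonicity string stood at -129. Of the 10 listed genes, 7 had a promoter in the table, 6 of them matched by gene identifier and Aldh4a1 by symbol. The receptor motif stood in 1 of the 7 (14.1% of 33469 promoters), the antioxidant string in 4 (34.7%) and the tonicity string in 1 (19.7%). These matches describe letters in a window and carry no measurement of binding.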

How the data were processed

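RNA from sorted CECs was sequenced from stranded polyA libraries, with counts in 48 files (12 samples, 4 technical replicates each). The authors trimmed and aligned reads with STAR, removed alignments matching more than once, and deposited raw read counts per Ensembl gene (HTSeq 0.5.3, build Rnor_6.0, per the labels). The strand setting of counting was not given in the sources used here. Counts were summed over technical replicates, and genes with at least 1 read in each sample were kept. Tests used edgeR 4.0.16 in R 4.3.3 (TMM scaling, quasi-likelihood F test, all 12 samples in 1 fit, Benjamini-Hochberg adjustment over 13050 genes, threshold 0.05), and DESeq2 1.42.0 was an alternative. Normalized counts were obtained by dividing each sample's counts by its effective (TMM) library size and multiplying by the mean of those sizes; log2 CPM used a prior count of 2. Scripts were tested on simulated counts. Named genes were all listed genes with an identifier, other family genes, list genes that were called, and the 5 genes most like Akr1b1. The gene table was available in shortened form here, so that 2043 of 13050 genes had a symbol. Levels were not ranked between genes because no transcript lengths were used here. The genes and lists were chosen with earlier results of these data known. Alternatives covered scaling, tool, filter, threshold, samples in the fit, the replicate letter as a block, the technical replicate with conflicting labels, and each sample left out.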

Additional observations from a re-analysis of the deposited data

How the results depend on the processing

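Of the 7 relatives, the number called stayed at 0 in F2 against AL and F3 against F2 and at 1 (Aldh3a2) in F3 against AL in all alternatives. In F1 against AL and in the joint test the count went from 1 to 0 at an adjusted p of at most 0.01, and ranged from 0 to 1 when each sample was left out in turn (0 without AL sample i, AL sample k, F1 sample i or F1 sample j in F1 against AL, and without AL sample i or F3 sample k in the joint test). DESeq2 raised the count from 0 to 1 (Aldh9a1) in F2 against F1 and in F2 against the other groups. The share of all genes that DESeq2 called there is not given here. The number of relatives with their highest mean in F2 was 3 without F2 sample j, and 3 to 6 over the samples left out. The cause of these shifts was not tested. No log2 fold change of a called gene changed sign.

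The letters i, j and k are shared by the groups, but samples with the same letter deviated together only weakly (correlations of -0.017 to 0.14 over 18 pairs), and 5 of 12 samples correlated best with their own letter. With the letter as a replicate block the members called numbered 1 in F1 and F3 against AL and in the joint test and 0 in the other comparisons, as without it; Aldh3a2 had adjusted p values of 0.0403 in F1 and 0.0117 in F3 (edgeR), and Akr1cl lost its F1 call (0.0694). Akr1cl kept its F1 call in 6 of 21 alternatives. The 2 to 10 reads of Aldh1a1 a sample limit any statement on that gene.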
